A study of Rattus norvegicus with 35 samples.

Results

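The livers compared here came from 5 simvastatin-treated cirrhotic rats and 5 normal rats, which were 10 of the 35 livers profiled in the series. They were taken by their treatment labels, and all 13439 genes with a probe set of their own were compared. Secondary biliary cirrhosis was produced 4 weeks before the study by tying off the common bile duct at both ends under midazolam and ketamine and removing the piece between. The treated rats then received simvastatin in water by stomach tube, 5 mg per kg daily for the last 3 days, the last dose 1 h before the experiment, and underwent a sham hemorrhage and resuscitation procedure (ligated simvastatin sham, called treated ligated here). The normal rats had the sham procedure without ligation (control sham, called control). Another 5 livers came from ligated rats that had the sham procedure without simvastatin (ligated sham, called untreated ligated), and they show on which side of normal cirrhosis alone lies. Weekly vitamin K is given in the same protocol as the ligation. The labels do not say whether control rats had abdominal surgery or vehicle, whether untreated ligated rats received vehicle, or the strain, sex and age of any animal. They describe each sample as liver tissue and do not tie samples to litters or days, so the p-values measure only the spread between these samples. All 5 measured hepatocyte markers were above background in each of the 3 groups.

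Simvastatin is a statin, a drug that lowers cholesterol by blocking the mevalonate pathway, which feeds both cholesterol and isoprenoid lipids. When sterol in the endoplasmic reticulum drops, the escort protein Scap lets the transcription factor encoded by Srebf2 travel to the nucleus, where it raises the genes of sterol synthesis, and the Insig proteins hold that step back when sterol is plentiful. Duct ligation blocks bile flow, and the liver answers with growth of bile ductules, deposition of matrix by stellate cells and portal fibroblasts, and loss of hepatocyte functions. The question of the comparison is what still separates a treated cirrhotic liver from a normal one, and which genes lie beyond the normal level.

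The values are log2 signals, so a difference of 1 is 2-fold. A gene counts as past the threshold at an adjusted p under 0.05, and errors of differences are standard errors of the fit. A group mean at or under that of the brightest nonspecific control probe is called not above background, and the fold is then given as "at least". That probe averaged 4.51 ± 0.41 (SD, n = 5) on control, 3.64 ± 0.51 on untreated ligated and 3.26 ± 0.20 on treated ligated arrays. The signal gap between spiked BioD and BioB was 2.74 ± 0.06, 3.20 ± 0.10 and 3.27 ± 0.15 in the same order. Both measures move with the groups compared, and their part in the differences was not tested. Genes above background numbered 8023 in control, 9792 in untreated ligated and 10253 in treated ligated livers. In a principal component analysis of the 15 sham arrays the first component took 68.6% of the variance, with controls between -74.8 and -66.1 and treated ligated livers between 28.8 and 54.9. Replicate 1 of the treated group stood apart on the second component, at 54.7 against -12.1 to -8.2 for the other 4. Replicate 3 of the untreated group lay at -3 on the first component, nearest to the controls, with the other 4 between 29.2 and 47.6. Sample titles end in 2 digits whose meaning is not stated: all controls share 1 ending, which 3 of the 5 treated and none of the untreated ligated livers carry.

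Treated ligated and control livers differed in 7401 genes, or 55.1% of those tested, with 3838 (28.6%) higher and 3563 (26.5%) lower in treated ligated livers. Counts of list members given below are to be read beside these shares. The lists were drawn up with earlier results of these data known, so the counts describe the members and test nothing. At least 2-fold differences were found for 1769 genes upward (13.2%) and 782 downward (5.82%). When each array was centred on its own median the split became 2870 higher and 5751 lower, and the median difference of all genes moved from -0.05 to -0.26. Without treated replicate 1 the counts were 3740 and 3531. Among the genes lower in treated ligated livers, 1249 were not above background in either group, and among those higher, 1281 were not above background in controls. The 2 ligated groups differed in 105 genes (0.781%), 85 higher (0.632%) and 20 lower (0.149%) in treated livers. That number was 66 without untreated replicate 1, 168 without treated replicate 1, 22 in a fit of those groups alone, 397 with array weights and 11 with the title ending as a block. Untreated ligated livers differed from controls in 6402 genes (47.6%), and in 1129 with that block. These comparisons share arrays, so their values are given side by side, and their overlap is used only to define the genes past the normal level.

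**Figure D1:**
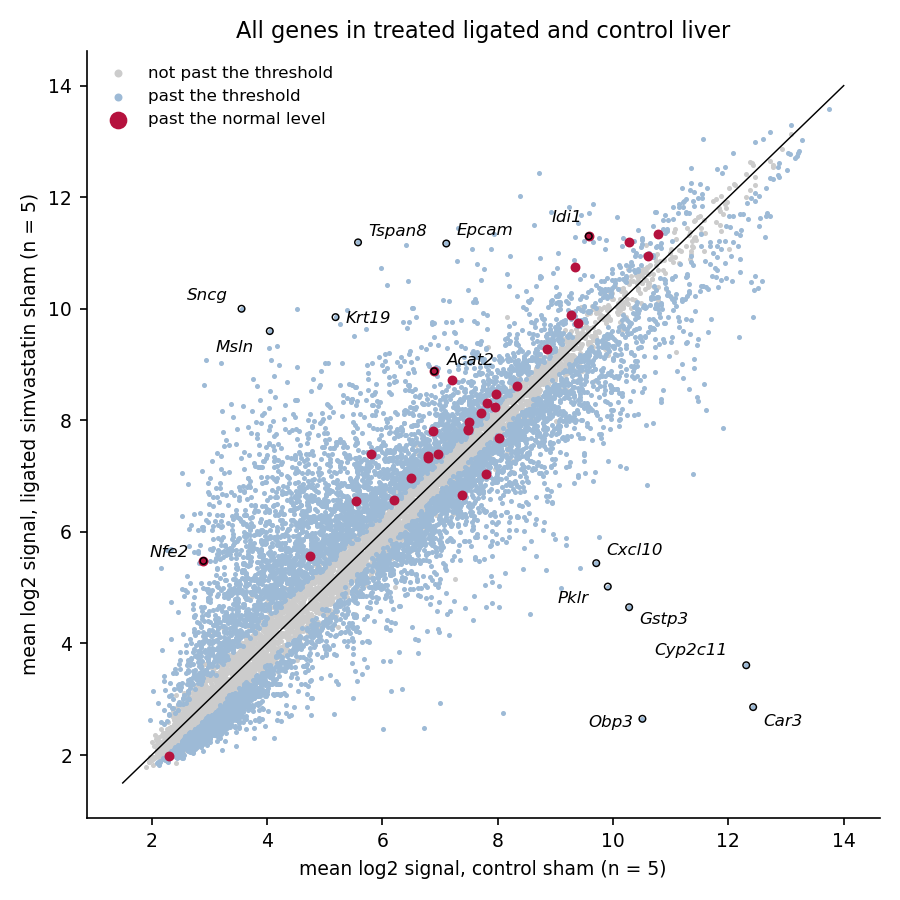
Each point is 1 gene, placed by its mean log2 signal in control sham livers (x axis) and ligated simvastatin sham livers (y axis), n = 5 each. The line marks equal signal, and the 32 genes past the normal level are drawn in red. Car3, Cyp2c11 and Obp3 lie farthest below the line, at 2.86, 3.61 and 2.65 in treated livers against 12.43, 12.31 and 10.51 in controls.

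Enzymes of the mevalonate pathway stood above the normal level in treated ligated livers. Of 7 measured members 6 were higher than in controls and 0 lower, against 28.6% of all genes higher, and their median difference was 1.51 where the median of all genes was -0.05. In untreated ligated livers 0 of the 7 were higher and 4 were lower than in controls, with a median of -0.65 (25.3% and 22.4% of all genes). The second stretch of the pathway, from squalene to cholesterol, was closer to normal, with a median of 0.31. Of its 11 measured members 4 were higher and 0 lower (28.6% and 26.5% of all genes). All 11 were lower than in controls in untreated ligated livers, with a median of -1.04. Without treated replicate 3 the median of the second stretch was 0.07.

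Acat2, the thiolase that makes acetoacetyl-CoA at the entry of the pathway, read 6.93, 6.26, 6.73, 7.46 and 7.12 in the 5 controls and 9.01, 8.77, 9.38, 8.30 and 8.93 in the 5 treated ligated livers. It read 6.35, 6.20, 6.07, 6.15 and 6.48 without simvastatin. All treated values lay above all others, and the difference from controls was 1.98 ± 0.19, or 3.94-fold (adjusted p = 3.6e-10). Idi1, the isomerase that interconverts the 5-carbon isoprenoid units, gave 9.51, 9.10, 9.26, 10.20 and 9.85 in controls, 8.74, 8.54, 8.89, 8.98 and 8.62 in untreated ligated and 11.29, 11.20, 11.73, 10.93 and 11.37 in treated ligated livers. The 3 groups did not overlap for Idi1, with untreated below and treated above normal, and treated livers were 3.29-fold above controls (log2 1.72 ± 0.16, adjusted p = 2.1e-10). Mvd, the decarboxylase that makes isopentenyl diphosphate, read 5.83, 5.59, 5.72, 6.23 and 5.66 in controls, 4.96, 4.68, 4.88, 4.72 and 4.34 in untreated ligated and 8.36, 7.14, 8.01, 6.42 and 7.04 in treated ligated livers. Its groups did not overlap either, and the rise over controls was 3.01-fold (1.59 ± 0.26, adjusted p = 3.6e-06).

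The estimates for the kinases between them were smaller, for Pmvk only slightly below that of Mvd (1.59), and these differences in size were not tested. Pmvk, phosphomevalonate kinase, was 2.86-fold above controls (1.51 ± 0.18, adjusted p = 2.1e-08), with a control mean of 7.21 and an untreated mean of 7.17. Mvk, mevalonate kinase, was 2.03-fold above (1.02 ± 0.24, adjusted p = 6.4e-04). Ggps1, which makes the lipid that anchors small GTPases, was 1.42-fold above (0.51 ± 0.16, adjusted p = 0.0085), a call that was lost when arrays were centred on their median or quantile normalized again. Fdps, which makes farnesyl diphosphate, averaged 10.85 ± 0.32 (SD) against 10.82 ± 0.19 in controls (difference 0.03, adjusted p = 0.88), and 9.63 in untreated ligated livers.

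On the sterol side the lanosterol demethylase Cyp51 read 10.24, 9.86, 10.26, 10.65 and 10.40 in controls and 11.31, 11.07, 11.57, 10.76 and 11.24 in treated ligated livers, a 1.88-fold rise without overlap (0.91 ± 0.16, adjusted p = 1.0e-05). Msmo1, a methylsterol oxidase of later demethylation steps, was 2.63-fold above controls (1.39 ± 0.20, adjusted p = 7.1e-07). Hsd17b7, a ketosteroid reductase of the same demethylation steps, was 1.91-fold above (0.93 ± 0.31, adjusted p = 0.011), and squalene epoxidase Sqle 1.51-fold (0.60 ± 0.21, adjusted p = 0.016). Both of these calls were lost without treated replicate 3, and that of Sqle also without control replicate 2 and after centring. The other 7 members did not differ from controls by this test: Fdft1 -0.22, Lss 0.03, Tm7sf2 0.16, Nsdhl -0.47, Ebp 0.01, Sc5d 0.31 and Dhcr7 0.33 on the log2 scale. Fdft1, squalene synthase, and Lss, lanosterol synthase, had fallen to 7.98 and 7.19 in untreated ligated livers, from 9.42 and 8.73 in controls, and stood at 9.21 and 8.77 with simvastatin. Within the treated group replicate 3 was highest and replicate 4 lowest for Acat2, Idi1, Pmvk, Hsd17b7, Cyp51 and Sqle.

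**Figure D2:**
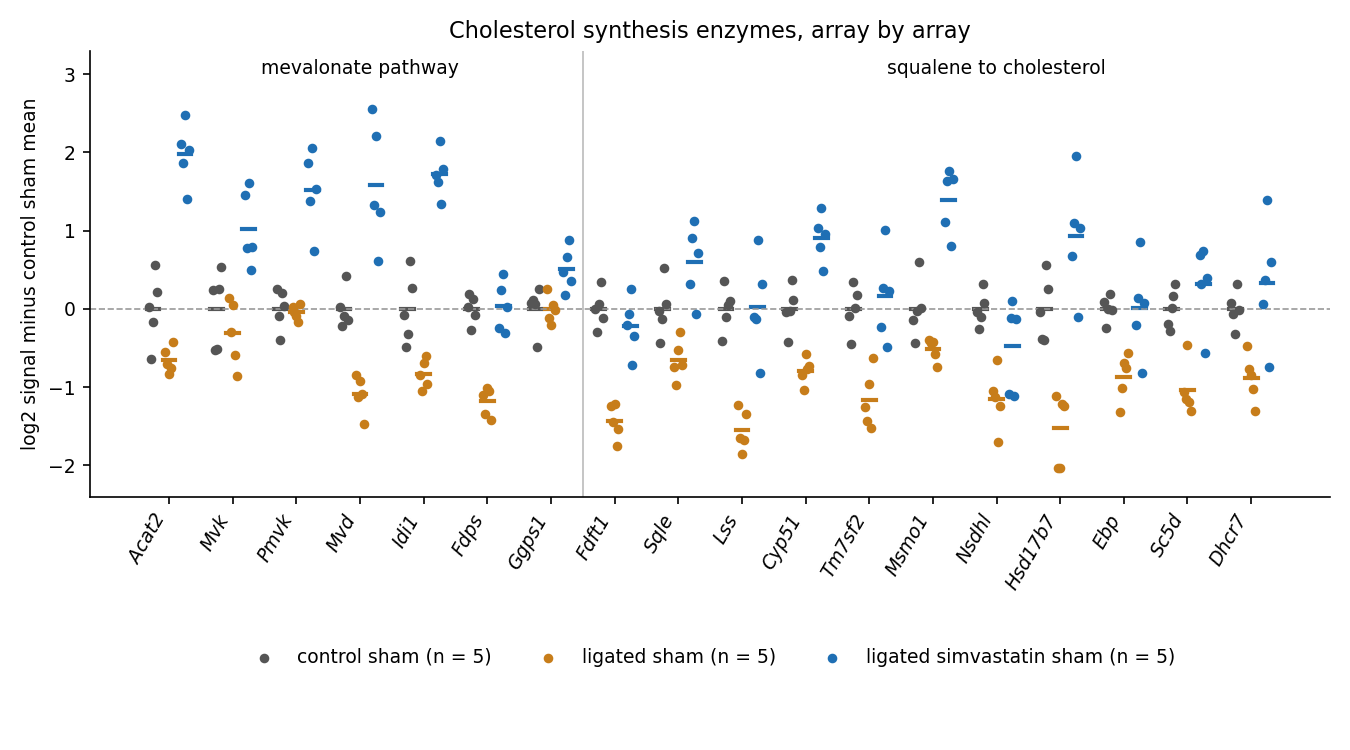
Log2 signal of 18 enzymes in pathway order, minus the control sham mean of each gene. Each point is 1 liver, short lines are group means, and the dashed line at 0 is the control mean. Treated means lie above 0 for all 7 mevalonate enzymes (left of the grey line), by 0.03 for Fdps to 1.98 for Acat2, and untreated means for the 11 later enzymes lie below it.

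Genes that control sterol supply went both ways. Of 9 measured genes of feedback and uptake, 3 were higher and 2 lower, near the shares of all genes (28.6% and 26.5%). The median difference was 0.03, a value whose sign changed in 8 of 24 alternative settings. Insig1, itself raised when sterol is short, was 1.47-fold above controls (0.56 ± 0.18, adjusted p = 0.0081). Insig2, its liver-enriched relative, read 9.92, 10.37, 9.82, 9.88 and 10.58 in controls and 7.61, 8.14, 8.39, 7.53 and 7.80 in treated ligated livers, a 4.66-fold fall without overlap (-2.22 ± 0.26, adjusted p = 1.5e-08). Untreated ligated livers did not differ from treated ones for Insig2 by this test (difference -0.36, adjusted p = 0.66). Mylip, a ubiquitin ligase that limits sterol uptake, was at least 3.49-fold above controls, where it was not above background (2.17 ± 0.28, adjusted p = 7.6e-08). Npc2, which hands cholesterol out of lysosomes, was 1.92-fold above (0.94 ± 0.13, adjusted p = 3.0e-07), and Scarb1, the HDL receptor, 1.68-fold below (-0.75 ± 0.23, adjusted p = 0.0071). The transcription factor gene Srebf2 (0.03), Scap (-0.29), Stard4 (0.34) and Tmem97 (-0.24) did not pass. Among 7 cholesterol export genes, the transporters Abca1 and Abcg5 were lower (-1.47 ± 0.37 and -1.41 ± 0.27, adjusted p = 0.0012 and 5.0e-05). Abcg5 lay little above background in both groups, at 4.75 in controls (background 4.51) and 3.33 in treated ligated livers (background 3.26). The size of its fall is therefore uncertain. Abcg1, another exporter, was higher by 0.70, but a second probe set of it passed in the opposite direction.

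Because sterol enzymes rose together, the 250 bases before the annotated start of Idi1, Msmo1 and Mvd are shown, from RefSeq on build GRCr8. They are the 3 of the 5 enzymes past normal in every alternative setting whose window holds a CCAAT box, and the windows of Acat2 and Cyp51 hold none. Capitals mark CCAAT or its reverse complement ATTGG, the box bound by NF-Y, which is known to act beside SREBP at sterol genes. Idi1 lies at chr17:66547525-66547774 on the minus strand, Msmo1 at chr16:29746863-29747112 on the plus strand and Mvd at chr19:67414975-67415224 on the minus strand.
Idi1: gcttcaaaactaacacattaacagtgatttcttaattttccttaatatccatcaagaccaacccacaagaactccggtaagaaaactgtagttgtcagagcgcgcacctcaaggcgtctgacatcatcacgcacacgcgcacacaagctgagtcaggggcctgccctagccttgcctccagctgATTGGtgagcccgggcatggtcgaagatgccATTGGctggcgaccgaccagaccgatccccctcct
Msmo1: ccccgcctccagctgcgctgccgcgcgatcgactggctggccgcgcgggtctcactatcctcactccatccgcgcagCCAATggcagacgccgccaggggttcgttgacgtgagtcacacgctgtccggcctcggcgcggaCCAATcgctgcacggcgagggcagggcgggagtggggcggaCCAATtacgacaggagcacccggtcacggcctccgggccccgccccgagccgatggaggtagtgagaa
Mvd: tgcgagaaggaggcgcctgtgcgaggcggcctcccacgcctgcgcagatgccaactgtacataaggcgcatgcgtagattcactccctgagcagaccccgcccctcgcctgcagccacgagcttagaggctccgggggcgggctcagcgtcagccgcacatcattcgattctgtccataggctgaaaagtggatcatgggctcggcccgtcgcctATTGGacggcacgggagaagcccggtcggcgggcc
The Idi1 window holds 2 such boxes, 66 and 35 bases before the start, the Msmo1 window 3, at 173, 109 and 68 bases, and the Mvd window 1, at 35 bases. Of 27 measured genes of the 3 sterol lists 22 had a window in the table, and 18 of these (81.8%) held a box on either strand, against 35.1% of the 11090 windows of genes tested. Among sterol genes past the normal level it was 6 of 8, among the others 12 of 14. A sterol element was searched only as TCACNCCAC on both strands. That pattern was in 0 of the 22 windows and in 0.983% of those of genes tested. Sites of other spelling were not searched, so 0 matches do not show that the windows lack such sites. A match describes only the letters of these windows.

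Genes past the normal level were counted where treated ligated livers differed from both control and untreated ligated livers in the same direction, with the untreated estimate on the other side of normal. There were 32 (0.238% of genes tested), 28 higher (0.208%) and 4 lower (0.0298%). Under the stricter request that untreated ligated livers also pass on the other side, 9 remained (0.0670%): Acat2, Idi1, Mvd, Msmo1, Hsd17b7, Cyp51, Sqle and Mrps18c above normal (0.0595%) and Rab5c below (0.00744%). Of the 32, 10 belong to the sterol lists: Acat2, Mvk, Pmvk, Mvd, Idi1, Sqle, Cyp51, Msmo1, Hsd17b7 and Insig1. Acat2, Idi1, Mvd, Msmo1 and Cyp51 met the definition under each of the 24 alternative settings. Of the 32, 16 still met it when arrays were centred on their median and 6 with the title ending as a block, where 9 genes met it in all. The differences from untreated ligated livers then missed the threshold for Mvk, Pmvk, Hsd17b7 and Sqle, and in a fit of the compared groups alone for Mvk and Sqle. The difference of Insig1 from untreated livers (0.72, adjusted p = 0.038) was lost in 11 settings. In the arms that underwent hemorrhage and resuscitation, treated ligated livers lay above their controls by 2.14 for Acat2, 1.90 for Idi1, 1.38 for Mvd, 1.92 for Msmo1 and 1.08 for Cyp51, and 14 of the 32 genes met the same definition there.

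Nfe2, the transcription factor of platelet and red cell precursors, was the other gene with a large excess. It read 2.67, 2.86, 3.31, 3.07 and 2.58 in controls, 2.81, 2.80, 2.75, 2.65 and 2.71 in untreated ligated and 5.29, 5.18, 6.65, 4.80 and 5.51 in treated ligated livers. It was above background in the treated group alone among these 3, at least 1.97-fold above controls (log2 2.59 ± 0.29, adjusted p = 5.4e-09). In the hemorrhage arms the difference from controls was 2.00 (adjusted p = 2.9e-08). The call was lost when genes under the 30th percentile were left out, since the gene then was not tested. The red cell genes Alas2, Slc4a1 and Epb42 were not above background in either group, and Hba-a3 read 5.44 in treated and 5.12 in control livers (adjusted p = 0.53).

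The remaining 17 genes above normal differed from controls by 0.29 to 0.82 on the log2 scale. Llph and Dnttip2, which act in ribosome assembly and the nucleolus, were 1.44- and 1.42-fold above controls (0.53 ± 0.12 and 0.50 ± 0.11, adjusted p = 6.3e-04 and 1.5e-04). For Dnttip2 the treated values, 8.58, 8.63, 8.36, 8.29 and 8.50, lay above the 5 controls, which ran from 7.93 to 8.01. Cbx1, a heterochromatin protein, was 1.41-fold above (0.49 ± 0.10, adjusted p = 5.6e-05) and Psmc6, an ATPase of the proteasome cap, 1.35-fold (0.44 ± 0.09, adjusted p = 1.7e-04). Pira2, an immune receptor of a family with similar sequences, exceeded controls by 0.82 in the sham arms, a call lost in 6 settings. Its hemorrhage arms gave -0.38 against controls (adjusted p = 0.19) and -1.07 against untreated ligated livers (adjusted p = 0.020), where the sham arms gave 1.38 (adjusted p = 0.011). The difference between arms was not called for treated against control and was not tested for treated against untreated livers. The others were Pikfyve, Cdkn2aip, Taf1d, Vps54, Mrps18c, Dbr1, Tatdn1, Fcf1, Wapl, Cmpk1, Dcun1d5 and Rbm17.

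Below the normal level lay Anp32a, Csnk2a1, Rab5c and Dlx1. Rab5c, a GTPase of early endosomes, read 8.06, 8.07, 8.05, 7.86 and 8.11 in controls, 8.51, 8.45, 8.12, 8.57 and 8.17 in untreated ligated and 7.53, 7.94, 7.59, 7.55 and 7.81 in treated ligated livers. Treated and control values overlapped in 1 liver each, and the difference was -0.35 ± 0.11 (adjusted p = 0.010). Anp32a, an acidic nuclear phosphoprotein, was 1.70-fold below controls (-0.76 ± 0.18, adjusted p = 5.4e-04). Csnk2a1, the catalytic subunit of casein kinase, differed by -0.74, with treated replicate 1 at 7.71, above every control, and another probe set of the gene passed in the opposite direction. Dlx1 was not above background in any of the groups.

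Bile duct genes rose steeply. Of 18 measured cholangiocyte and ductular genes 16 were higher and 0 lower, with a median of 3.88. In whole tissue, more or fewer cells of a type and more or less RNA per cell cannot be told apart. Krt19, a keratin of bile duct epithelium, read 5.25, 5.66, 4.73, 5.45 and 4.84 in controls and 9.86, 9.71, 9.55, 10.43 and 9.70 in treated ligated livers, a 25.4-fold rise (4.67 ± 0.31, adjusted p = 3.8e-14). Untreated ligated livers averaged 10.00 for Krt19 and did not differ from treated ones by this test (-0.15 ± 0.31, adjusted p = 0.91). Tspan8, a tetraspanin, rose 48.7-fold and Cd24, a surface protein of ductular cells, 44.6-fold (5.61 ± 0.35 and 5.48 ± 0.27). Epcam, the epithelial adhesion molecule, rose 16.7-fold and Cftr, the chloride channel of bile secretion, 15.6-fold (4.06 ± 0.22 and 3.97 ± 0.36). Sctr, the secretin receptor, rose at least 26.0-fold from a control level that was not above background. Sox4, a transcription factor, rose 16.1-fold on its brightest probe set, while another passed in the opposite direction. Sox9 was not above background in either group, and the exchanger Slc4a2 did not pass (0.42, adjusted p = 0.094). Between treated and untreated ligated livers 0 of the 18 passed, where 0.781% of all genes did, a share too low to read anything from that count.

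Rises of similar size were seen in genes outside the duct list. S100a6 and S100a11, calcium-binding proteins, rose 27.0- and 26.5-fold, and Cd9, a tetraspanin, 24.3-fold (4.75 ± 0.42, 4.73 ± 0.38 and 4.60 ± 0.29). Ccl21, a chemokine that draws lymphocytes and dendritic cells, rose 21.3-fold (4.42 ± 0.40), Fgfr3, a growth factor receptor, 20.2-fold (4.34 ± 0.26) and Anxa5, a phospholipid-binding annexin, 17.5-fold (4.13 ± 0.27). Pamr1, Serpinb1a and Rgs10 rose 21.9-, 16.8- and 16.1-fold. Sncg, a synuclein, reached 9.44, 9.42, 9.56, 11.31 and 10.24 in treated ligated livers from 5.20, 2.26, 4.44, 2.63 and 3.26 in controls, at least 38.3-fold (6.44 ± 0.87, adjusted p = 2.0e-07). Itgb6, the integrin subunit that frees active TGF-beta, rose at least 23.4-fold, Dclk1, a kinase of tuft and neural cells, at least 22.6-fold and Map2, a microtubule protein, at least 17.6-fold. Mesothelin (Msln), a marker of mesothelium, was up at least 27.5-fold (5.55 ± 0.53). In the list of mesothelial and neural genes, drawn up with earlier results of these data known, 5 of 9 were higher and 1 lower. The 5 include Sncg, Dclk1, Map2 and Msln, while Upk1b, Ncam1 and Tubb3 did not pass. Fxyd3, Dcdc2, Tsx and Gabrp rose at least 25.0-, 22.1-, 16.9- and 12.7-fold.

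Matrix and stellate cell genes were higher in 24 of 30 measured members and lower in 0, with a median of 1.83. Vim, the intermediate filament of mesenchymal cells, rose 12.4-fold, with values of 11.78 to 12.28 against 7.74 to 8.68 in controls (3.63 ± 0.23, adjusted p = 2.4e-14). Among fibrillar collagens Col5a2 rose 6.38-fold and Col1a2 3.27-fold, and Col1a1 at least 3.38-fold (2.67 ± 0.18, 1.71 ± 0.20 and 2.12 ± 0.25). Col6a3, a microfibrillar collagen, rose 7.17-fold and Timp2, an inhibitor of matrix proteases, 6.57-fold, each with another probe set that passed in the opposite direction. Loxl1, which crosslinks elastin, rose at least 14.5-fold and Lum, a collagen-binding proteoglycan, at least 8.84-fold. Acta2, the smooth muscle actin of activated stellate cells, rose 1.72-fold (0.78 ± 0.18, adjusted p = 5.7e-04). Fn1 (-0.24), Eln (0.01), Mmp14 (-0.08) and Tgfb1 (0.17) did not pass.

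**Figure D3:**
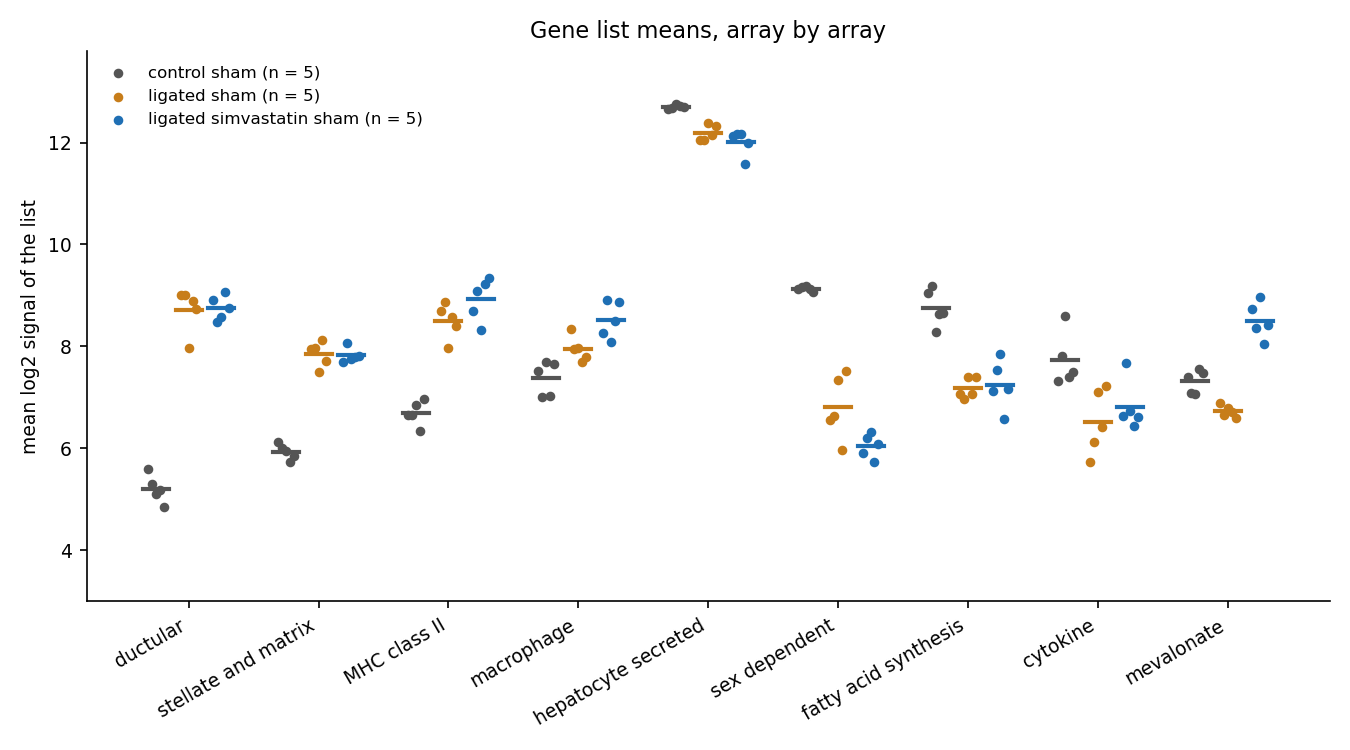
Mean log2 signal of 9 gene lists in each liver. Points are single livers and short lines are group means. Ductular means run from 4.86 to 5.60 in controls and from 8.47 to 9.06 in treated ligated livers, and the mevalonate list is the one shown whose treated livers, at 8.05 to 8.97, lie above the controls while the untreated ones, at 6.59 to 6.90, lie below.

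Immune cell genes rose unevenly. Antigen presentation by MHC class II was higher in 7 of 8 members, with a median of 2.57. Cd74, the invariant chain, read 10.77, 11.14, 10.49, 11.07 and 11.27 in treated ligated livers and 8.02, 8.41, 8.51, 7.68 and 8.47 in controls, a 6.64-fold rise (2.73 ± 0.21, adjusted p = 1.8e-12). RT1-DMb and RT1-Db1, parts of the rat class II system, rose 5.54- and 6.37-fold, and the protease Ctss 3.85-fold (2.47 ± 0.21, 2.67 ± 0.26 and 1.94 ± 0.19). The class II regulator Ciita was not above background in either group. Macrophage genes were higher in 10 of 13 and lower in 0, with a median of 1.21. Gpnmb, a protein of lipid-laden macrophages, rose 5.27-fold and C1qc, a complement subunit, 4.24-fold (2.40 ± 0.27 and 2.08 ± 0.24). Clec4f, the receptor that marks resident Kupffer cells, did not pass (-0.56 ± 0.82, adjusted p = 0.57), nor did Cd5l (-0.14) or Adgre1 (0.48).

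Lymphocyte genes were mixed, with 5 of 15 higher and 3 lower, near the shares of all genes (28.6% and 26.5%). Their median was -0.03, and its sign changed in 5 settings. Cd3g, a chain of the T cell receptor complex, rose at least 1.93-fold (1.86 ± 0.24, adjusted p = 8.1e-08), while the cytotoxic gene Prf1 was not above background in either group. Of 7 neutrophil genes S100a8 passed (1.77 ± 0.66, adjusted p = 0.022), a call lost in 6 settings, and S100a9 did not (1.48 ± 0.67, adjusted p = 0.059). Cpa3, a mast cell protease, rose at least 2.10-fold (1.65 ± 0.48), while the mast cell genes Tpsab1 and Ms4a2 were not above background in either group. Endothelial genes went both ways. Stab2, a scavenger receptor of sinusoidal endothelium, fell 5.14-fold and Kdr, a VEGF receptor, 2.70-fold, while Vwf, the clotting factor carrier of vascular endothelium, rose at least 2.38-fold (-2.36 ± 0.60, -1.44 ± 0.21 and 1.60 ± 0.24). Stab1, the relative of Stab2, rose 2.17-fold (1.12 ± 0.24). Of 10 endothelial genes 4 were higher and 2 lower, where 28.6% and 26.5% of all genes were. Lyve1, a hyaluronan receptor, did not pass (9.02 against 9.06). Of 4 pancreas markers Prss1, Cpa1 and Pnlip were not above background in either group. Of 2 measured skeletal muscle markers Ckm was not above background in either group, and Acta1, skeletal muscle actin, averaged 3.88 ± 1.22 (SD) in treated ligated livers, above background there, and 2.18 ± 0.15 in controls (adjusted p = 0.040).

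Inflammatory mediators were more often lower than higher in treated ligated livers. Of 23 cytokine, chemokine and adhesion genes 10 were lower and 5 higher, where 26.5% and 28.6% of all genes were. The other 8 did not pass, and the median was -0.82. Cxcl10, a chemokine induced by interferon, read 8.83, 10.15, 11.23, 9.79 and 8.53 in controls and 5.68, 7.13, 5.57, 4.12 and 4.72 in treated ligated livers, a 19.2-fold fall without overlap (-4.26 ± 0.69, adjusted p = 4.5e-06). Its relatives Cxcl9 and Cxcl11 fell 16.4- and 14.3-fold, and Il1a, an interleukin released by injured cells, 16.8-fold (-4.04 ± 0.71, -3.84 ± 0.51 and -4.07 ± 0.65). Il10, an inhibitory cytokine, fell 4.70-fold (-2.23 ± 0.32). Cx3cl1, a membrane-bound chemokine, rose at least 2.63-fold, and Ccl20, a chemokine of epithelia, 7.80-fold (2.48 ± 0.26 and 2.96 ± 0.57). Tnf (-0.51 ± 0.57) and Il1b (-0.73 ± 0.48) did not pass. Among 14 interferon-stimulated genes 3 were lower and 0 higher, where 26.5% of all genes were lower, and the median of -0.15 became 0.02 without control replicate 3. Usp18, which restrains interferon signalling, fell 3.35-fold (-1.74 ± 0.42), whereas Mx2 (-0.24) and Oas1a (-0.08) did not pass.

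Hepatocyte genes fell, most steeply those that depend on sex and growth hormone. Of 14 measured members of that list 13 were lower and 1 higher, with a median of -1.97. Car3, the carbonic anhydrase that male livers make in quantity, read 12.36, 12.40, 12.38, 12.65 and 12.38 in controls and 2.64, 2.94, 3.66, 2.43 and 2.63 in treated ligated livers. It was no longer above background there, and the fall was at least 538-fold (log2 -9.57 ± 0.59, adjusted p = 1.2e-14). Untreated ligated livers read 4.28, 7.28, 5.80, 3.73 and 9.18, so they were scattered between the other groups and all 5 lay above all 5 treated values. Cyp2c11, the P450 enzyme typical of males, read 12.19, 12.25, 12.46, 12.38 and 12.27 in controls and 4.02, 3.80, 3.60, 3.37 and 3.26 in treated ligated livers, a 416-fold fall (-8.70 ± 0.56, adjusted p = 2.5e-14). Untreated values were 5.03, 4.87, 7.60, 4.13 and 9.34, again above every treated value. The treated mean of 3.61 lay little above background (3.26 ± 0.20), and treated replicate 5 lay under the nonspecific probe of its array (3.32). The size of the fold for Cyp2c11 is therefore uncertain. Obp3, a lipocalin carrier made in male liver, fell at least 152-fold (-7.86 ± 0.65, adjusted p = 8.5e-12), and 4 of the 5 untreated livers read 2.74 to 3.42, near the treated range of 2.32 to 2.96.

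Simvastatin-treated livers lay further from normal than untreated ones for Cyp2c11, by -2.59 (adjusted p = 0.013). That size is uncertain too, since the treated values lay close to background. Car3 averaged 6.06 ± 2.23 (SD) in untreated livers and was not above background in treated ones, so the size of that difference is not given (adjusted p = 0.0019). Cyp39a1, an oxysterol hydroxylase that feeds bile acid synthesis, was another, at 8.03 ± 0.26 in controls, 5.93 ± 0.52 in untreated and 4.65 ± 0.38 in treated ligated livers, 10.4-fold below controls (-3.38 ± 0.26, adjusted p = 1.8e-12) and differing from untreated livers by -1.28 (adjusted p = 0.0072). Cldn8, a tight junction protein, named after its values were seen, went the other way, at 2.53 ± 0.13, 5.85 ± 0.83 and 7.06 ± 0.52 in the same order, 1.21 above untreated livers (adjusted p = 0.028). These differences between the ligated groups depended on the setting. In a fit of the compared groups alone the adjusted p was 0.28 for Car3, 0.40 for Cyp2c11, 0.099 for Cyp39a1 and 0.39 for Cldn8. Without untreated replicate 3 it was 0.060 for Cyp2c11 and 0.11 for Cldn8, and with the title ending as a block 0.065 for Car3, 0.18 for Cyp2c11 and 0.49 for Cldn8.

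**Figure D4:**
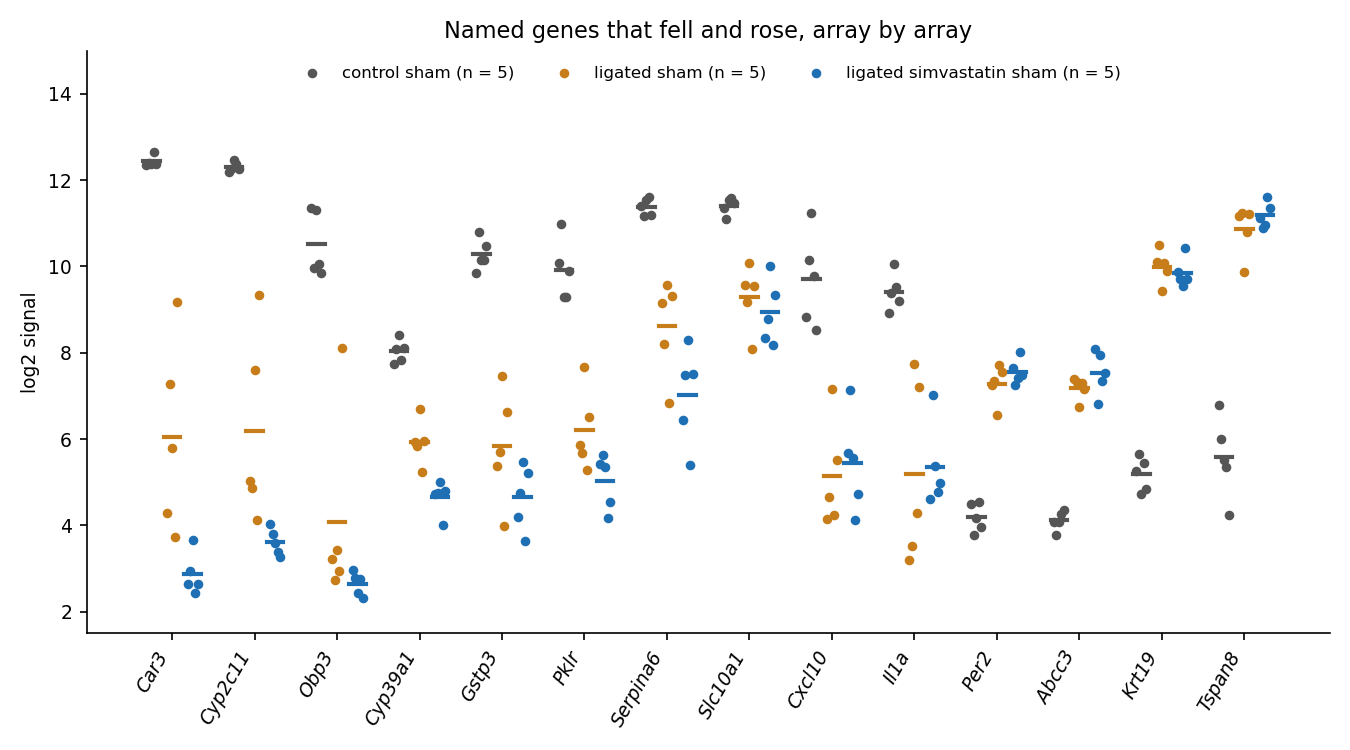
Log2 signal of 14 genes in each liver, with short lines for group means. Treated ligated livers read 2.43 to 3.66 for Car3 and 3.26 to 4.02 for Cyp2c11, below all untreated ligated livers, whereas the groups with ligation overlap for Krt19, Tspan8 and Per2.

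The growth hormone axis itself was also lower. Ghr, the receptor, fell 3.38-fold, Stat5b, its transcription factor, 3.17-fold, Igf1 2.04-fold and Igfals, the carrier of the IGF complex, 6.66-fold (-1.76 ± 0.21, -1.66 ± 0.19, -1.03 ± 0.16 and -2.74 ± 0.31). The 1 member that rose was Cyp2c12, the female-specific counterpart of Cyp2c11, at 11.65 against 10.07 in controls (3.01-fold, 1.59 ± 0.35, adjusted p = 3.1e-04). Probes of the Cyp2c family may cross-react. Slco1a1, a male-enriched organic anion carrier, fell 5.50-fold.

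Other hepatocyte falls were large as well. Gstp3, a glutathione transferase, read 9.84, 10.79, 10.15, 10.15 and 10.48 in controls and 4.19, 4.75, 5.46, 3.63 and 5.22 in treated ligated livers, a 49.6-fold fall (-5.63 ± 0.52, adjusted p = 1.1e-10). Pklr, liver pyruvate kinase, fell 29.6-fold, Serpina6, the corticosteroid carrier of blood, 20.4-fold and Cyp3a2, a drug-metabolizing P450, 16.5-fold (-4.89 ± 0.36, -4.35 ± 0.53 and -4.04 ± 0.74). Slc22a8, an organic anion transporter, fell at least 28.0-fold and Lin7a, a scaffold protein, at least 13.3-fold. Stac3 fell as well (-4.25 ± 0.32) and was not above background in treated livers. Paqr9, Hao2, Hsd17b2, Serpina4 and Ust5r fell 17.4-, 13.3-, 11.5-, 10.7- and 10.7-fold. Of 11 measured cytochrome P450 genes of drug metabolism 7 were lower and 0 higher, with a median of -1.34. Cyp4f1 fell 4.32-fold and Cyp3a18 6.63-fold (-2.11 ± 0.19 and -2.73 ± 0.42), while Cyp2e1 (0.17), Cyp2c22 (0.26) and Cyp2a1 (-0.58) did not pass.

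Genes of fatty acid synthesis stayed low although sterol synthesis did not. Of 18 measured members 14 were lower than in controls and 0 higher, with a median of -1.73. Thrsp, a lipogenic regulator, fell 6.45-fold, Me1, malic enzyme, 3.46-fold, Srebf1, the lipogenic relative of Srebf2, 4.58-fold and Dgat2, which completes triglycerides, 3.98-fold (-2.69 ± 0.33, -1.79 ± 0.19, -2.20 ± 0.24 and -1.99 ± 0.23). Scd, stearoyl-CoA desaturase, read 9.85 against 12.43 (-2.58 ± 0.37, adjusted p = 7.1e-07). The members that differed between the ligated groups were Acss2, which activates acetate (1.51 above untreated, adjusted p = 3.0e-04), and Elovl6, a fatty acid elongase (1.89 above, adjusted p = 9.9e-04). Both then did not differ from controls by this test, at 0.13 (adjusted p = 0.67) and -0.75 (adjusted p = 0.053). Of 17 genes of fatty acid oxidation 10 were lower and 1 higher, with a median of -0.67. Fabp1, the fatty acid carrier of hepatocytes, fell 4.43-fold, Acadvl, an acyl-CoA dehydrogenase, 2.09-fold and Fgf21, a fasting hormone, 8.62-fold (-2.15 ± 0.32, -1.06 ± 0.15 and -3.11 ± 0.49). Acot1, an acyl-CoA thioesterase, rose at least 2.58-fold (2.37 ± 0.44).

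Bile acid synthesis was lower in 9 of 14 measured genes and higher in 1, with a median of -0.74. The 1 that was higher was Cyp7a1, the rate-limiting hydroxylase, at 10.41 against 8.67 (3.33-fold, 1.74 ± 0.41, adjusted p = 6.8e-04). Amacr, a racemase of side-chain shortening, fell 4.33-fold, Hsd3b7 2.67-fold and Baat, which conjugates bile acids, 2.18-fold (-2.12 ± 0.32, -1.42 ± 0.16 and -1.12 ± 0.24). The bile acid receptor Nr1h4 fell 2.29-fold and its target Nr0b2 1.88-fold (-1.20 ± 0.24 and -0.91 ± 0.38, adjusted p = 7.7e-05 and 0.043). Of 11 transporters 7 were lower and 2 higher, with a median of -1.10. Slc10a1, the sodium-dependent uptake carrier, read 11.35, 11.09, 11.54, 11.59 and 11.47 in controls and 8.35, 8.79, 10.01, 8.18 and 9.34 in treated ligated livers, a 5.56-fold fall (-2.48 ± 0.34, adjusted p = 3.3e-07). The canalicular pumps Abcc2 and Abcb11 fell 3.82- and 2.15-fold (-1.93 ± 0.32 and -1.10 ± 0.30), and Abcb4 did not pass (-0.05). Abcc3, the basolateral pump that returns bile acids to blood, went from 4.08, 3.78, 4.08, 4.27 and 4.35 to 8.08, 6.81, 7.94, 7.35 and 7.52, at least 7.98-fold up (3.43 ± 0.20, adjusted p = 3.6e-15). Phospholipid flippase Atp8b1 rose 1.36-fold (0.44 ± 0.15, adjusted p = 0.014).

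Most secreted hepatocyte proteins were lower. Of 14 measured members 12 were lower and 0 higher, with a median of -0.45. Several lie near 13.79, the highest signal in the table, where differences may be compressed, so their sizes are not set against those of other lists. Albumin (Alb) was 13.58 against 13.74 (-0.16 ± 0.06, adjusted p = 0.037), and Ttr, the thyroxine carrier, fell 1.36-fold (-0.45 ± 0.08). Apoa4 and Apoa2, apolipoproteins, fell 5.49- and 3.67-fold (-2.46 ± 0.40 and -1.87 ± 0.35). Coagulation and complement genes were lower in 15 of 17, with a median of -0.89. Mbl1, a lectin of complement, fell 3.53-fold, C8b 3.01-fold, F12 2.66-fold and Plg, plasminogen, 2.46-fold (-1.82 ± 0.23, -1.59 ± 0.27, -1.41 ± 0.23 and -1.30 ± 0.26). In the acute phase list 10 of 16 were lower and 1 higher, the glycoprotein Orm1 (0.45 ± 0.09, adjusted p = 1.3e-04, lost after centring). Crp, C-reactive protein, fell 3.66-fold and Apcs, serum amyloid P, 2.69-fold (-1.87 ± 0.37 and -1.43 ± 0.21), while haptoglobin Hp did not pass (0.04).

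In the urea cycle list 6 of 11 were lower and 1 higher, with a median of -0.40. Otc, ornithine transcarbamylase, fell 5.46-fold (-2.45 ± 0.30, adjusted p = 2.8e-08) and Slc25a13, the aspartate carrier, 2.85-fold (-1.51 ± 0.23), while Cps1 (0.17), Ass1 (-0.05) and Asl (0.38) did not pass. Glul, glutamine synthetase, rose 1.70-fold (0.76 ± 0.17), a call lost when the probe sets of a gene were averaged. Of 12 genes of gluconeogenesis, amino acid breakdown and glucocorticoid response 5 were lower and 3 higher, where 26.5% and 28.6% of all genes were. Their median was -0.42. G6pc1, glucose-6-phosphatase, fell 2.73-fold and Tat, tyrosine aminotransferase, 2.52-fold (-1.45 ± 0.35 and -1.33 ± 0.32). Tsc22d3, a glucocorticoid-induced leucine zipper, rose 9.04-fold, from 7.10 to 8.07 in controls to 10.24 to 11.17 (3.18 ± 0.29, adjusted p = 8.2e-11). In the conjugation list 5 of 12 were lower and 2 higher, where 26.5% and 28.6% of all genes were, and the median was -0.16. Sult1c3, a sulfotransferase, fell 4.04-fold and Gstp1, a glutathione transferase of ducts and injured liver, rose 4.38-fold (-2.02 ± 0.28 and 2.13 ± 0.29).

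Stress genes were mostly lower. In the endoplasmic reticulum and integrated stress list 13 of 18 were lower and 0 higher, with a median of -0.82. Asns, asparagine synthetase, fell 4.02-fold, Sdf2l1 2.86-fold and the chaperone partner Dnajb9 2.46-fold (-2.01 ± 0.22, -1.51 ± 0.24 and -1.30 ± 0.19). Of 16 oxidative stress genes 9 were lower and 2 higher, with a median of -0.61. Gclc, which limits glutathione synthesis, fell 3.89-fold and Txnrd1, thioredoxin reductase, 2.44-fold (-1.96 ± 0.22 and -1.29 ± 0.16). The 2 that rose were glutathione peroxidases, Gpx3 12.9-fold and Gpx2 at least 21.1-fold (3.69 ± 0.27 and 4.79 ± 0.36). Of 12 heat shock genes 3 were higher and 2 lower, where 28.6% and 26.5% of all genes were. The median of this list was 0.03, and its sign changed in 4 settings. For Cryab, the crystallin-type chaperone, the rise was at least 16.1-fold (4.34 ± 0.49). Hsph1, a large chaperone, was 2.31-fold lower (-1.21 ± 0.28).

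Cell cycle genes were higher in 9 of 23 and lower in 1, where 28.6% and 26.5% of all genes were. The other 13 did not pass, and the median of 0.44 became 0.22 when each array was centred on its median. Ccnd1, cyclin D, rose 2.24-fold and Mki67, the proliferation marker, 2.81-fold (1.16 ± 0.23 and 1.49 ± 0.40, adjusted p = 6.2e-05 and 0.0020), while Pcna (0.22) and Rrm2 (0.00) did not pass. Of 15 clock genes 7 were higher and 4 lower, where 28.6% and 26.5% of all genes were, and the median of 0.46 became 0.05 when the probe sets of each gene were averaged. Per2, a repressor of the clock, read 4.50, 3.77, 4.17, 4.55 and 3.95 in controls and 7.64, 7.26, 7.41, 8.02 and 7.49 in treated ligated livers, at least 7.37-fold up (3.38 ± 0.29, adjusted p = 1.4e-11). Bhlhe41, another repressor, rose at least 5.14-fold, Dbp, a clock output, at least 1.81-fold, and Bmal1, the positive arm, fell 2.13-fold (3.69 ± 0.28, 1.32 ± 0.28 and -1.09 ± 0.33). For Bmal1 treated replicate 1 stood apart at 3.05, with the other treated livers at 4.74 to 5.33. Hlf, a relative of Dbp, fell 6.85-fold (-2.78 ± 0.41). The time of day at which livers were taken is not in the labels used here, and its part was not tested.

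**Figure D5:**
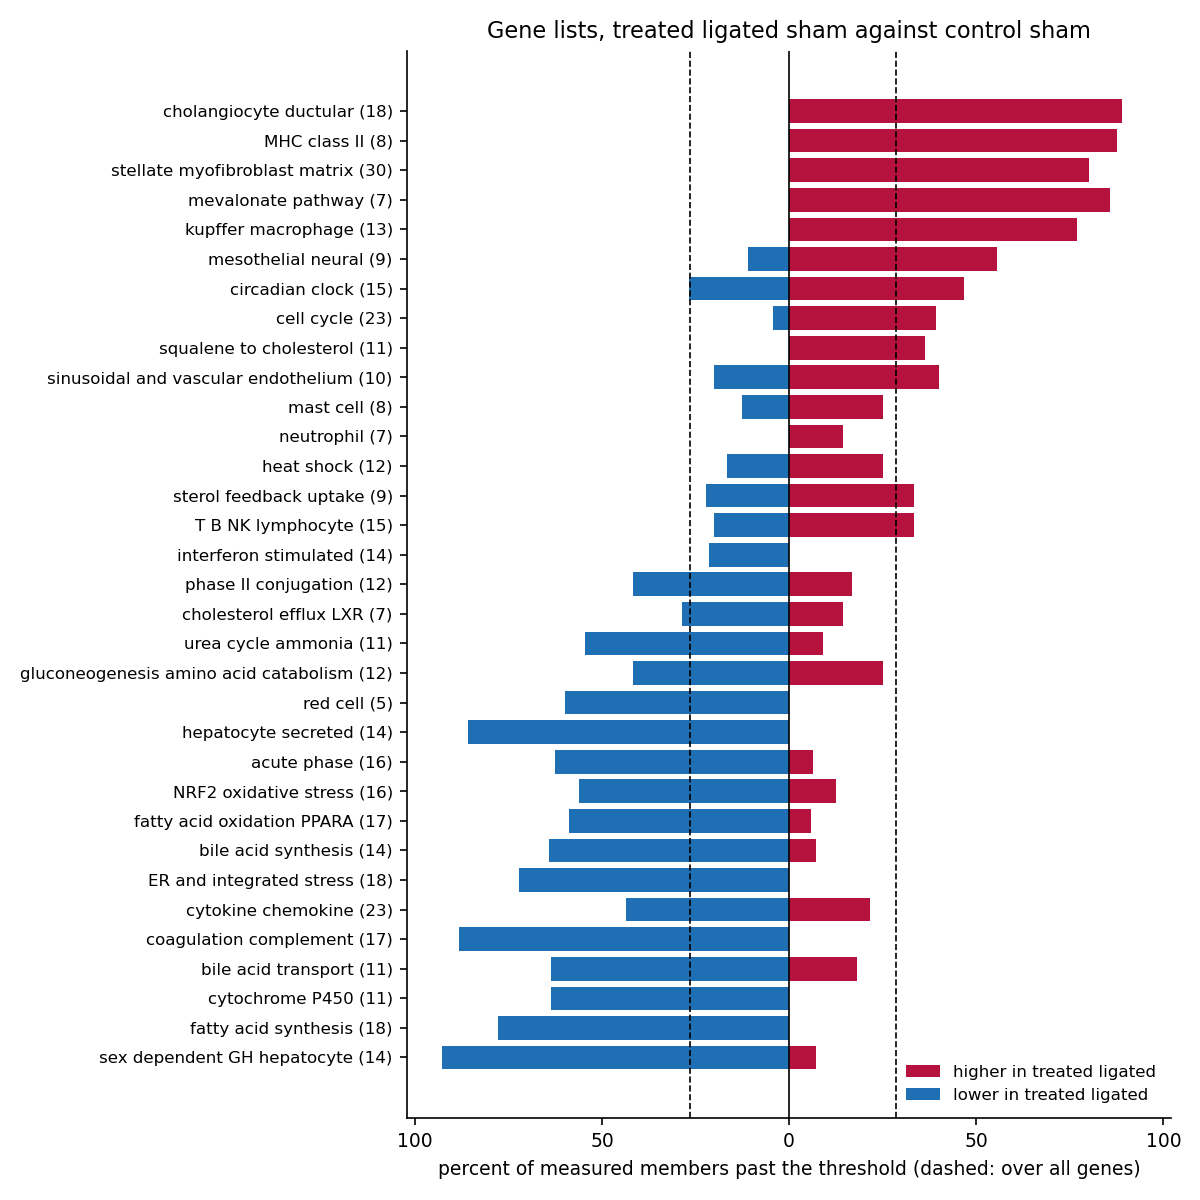
Share of the measured members of 33 gene lists that were higher (right) or lower (left) in ligated simvastatin sham than in control sham livers, with the number measured in brackets and lists ordered by their median difference. Dashed lines mark the shares over all genes tested, 28.6% higher and 26.5% lower. The ductular, class II, matrix, mevalonate and macrophage lists lie farthest to the right, and the sex-dependent, coagulation and secreted protein lists reach farthest to the left.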

How the data were processed

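Total liver RNA, labelled with biotin per the labels, was hybridised to Affymetrix arrays of 1 colour. The sources used here do not give the RNA extraction or the normalization. Per probe set the authors deposited a log2 signal, a scale inferred from the range of the values, 1.51 to 13.79.

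Of 31139 probe sets 19069 carried 1 symbol, 572 several and 11498 none. The brightest single-symbol probe set stood for each of 13439 genes, 3986 of which had several. A model with 1 mean per group was fitted to all 35 arrays with limma 3.58.1 in R 4.3.3 (lmFit, eBayes), with Benjamini-Hochberg adjustment over all genes. The code was tested on simulated data. No pair of arrays was identical (highest correlation 0.992), and array number limits the precision.

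Members and the 33 gene lists (513 entries, 445 measured) were chosen with earlier results of these data known. Named were the 15 largest measured rises and falls, the 10 and 5 largest bounded ones, the 10 largest on each side past normal, all sterol synthesis and feedback genes and, per other list, the 4 of smallest p. Other members were named for their known role after their values were seen. Alternatives were other groupings, moderation, weights, filters, scaling, probe set means, title endings and leaving out each array.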

Additional observations from a re-analysis of the deposited data

Results flagged for a closer look

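In each group of 5 the highest or lowest liver was compared with the range of the group. Of 792 groups of values examined, over genes named in the text, list means and control probes, 55 (6.9%) had 1 liver far from the other 4, where chance alone gives about 1 in 20. All values are log2 signals.

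Untreated ligated replicate 3 was low for Cd24 at 9.07 (others 9.91 to 10.23), Cd9 at 8.93 (others 10.20 to 10.50), Cldn8 at 4.40 (others 5.92 to 6.40), Ctss at 10.13 (others 10.59 to 10.78) and Dcdc2 at 8.22 (others 9.39 to 9.50). It was also low for Gabrp at 7.07 (others 8.48 to 8.82), Mylip at 5.82 (others 6.92 to 7.22), Sncg at 7.84 (others 10.12 to 10.56), Sox4 at 8.64 (others 9.99 to 10.39) and Tsc22d3 at 8.88 (others 10.21 to 10.61). The same liver was low for the mean of the ductular list at 7.97 (others 8.74 to 9.01). In addition it was high for Il10 at 5.63 (others 4.20 to 4.43), S100a9 at 8.61 (others 7.92 to 8.09), Sc5d at 9.15 (others 8.30 to 8.54), Slc22a8 at 5.02 (others 2.46 to 2.94) and Stab2 at 7.56 (others 3.20 to 4.12). This liver was high for the mean of the neutrophil list at 4.42 (others 3.97 to 4.06) and the mean of the endoplasmic reticulum stress list at 9.11 (others 8.69 to 8.74).

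Treated ligated replicate 4 was low for G6pc1 at 8.22 (others 9.87 to 10.45), Scarb1 at 5.70 (others 6.64 to 7.01), Serpina4 at 6.91 (others 8.27 to 8.67), the mean of the hepatocyte secreted protein list at 11.57 (others up to 12.17) and the mean of the coagulation and complement list at 9.35 (others 10.12 to 10.41). It was also high for S100a6 at 11.77 (others 10.34 to 10.73). Control replicate 4 was low for Col5a2 at 5.69 (others 6.49 to 6.66), Ggps1 at 4.86 (others 5.41 to 5.60), Rab5c at 7.86 (others 8.05 to 8.11) and Wapl at 7.31 (others 7.51 to 7.58). The same liver was high for Car3 at 12.65 (others 12.36 to 12.40). Control replicate 2 was low for Mrps18c at 7.37 (others 7.74 to 7.83), Slco1a1 at 8.99 (others 9.37 to 9.48) and Sult1c3 at 11.26 (others 11.47 to 11.56). In addition it was high for Ccnd1 at 8.39 (others 7.58 to 7.73). Untreated ligated replicate 5 was low for Cyp2c12 at 10.90 (others 11.73 to 11.97) and Mmp14 at 8.72 (others 9.07 to 9.19). This liver was high for Obp3 at 8.10 (others 2.74 to 3.42) and Sox9 at 2.24 (others 1.90 to 1.99). Untreated ligated replicate 2 was high for Cpa1 at 4.70 (others 2.26 to 2.78), Pnlip at 5.37 (others 2.87 to 3.19) and Prss1 at 6.53 (others 2.09 to 3.20). Treated ligated replicate 1 was low for Bmal1 at 3.05 (others 4.74 to 5.33) and the mean of the cholesterol export list at 5.78 (others 5.96 to 6.02). It was also high for Slc4a2 at 7.10 (others 5.28 to 5.79). Untreated ligated replicate 4 was low for Mrps18c at 6.81 (others 7.33 to 7.53) and Scarb1 at 5.76 (others 6.54 to 6.68). Treated ligated replicate 2 was high for Ms4a2 at 4.01 (others 3.04 to 3.12) and the mean of the cytokine list at 7.68 (others 6.44 to 6.73). Control replicate 5 was low for Sctr at 2.96 (others 4.23 to 4.34). The same liver was high for Mx2 at 5.84 (others 4.87 to 5.03). Control replicate 1 was low for Abcb11 at 10.00 (others 10.18 to 10.23). In addition it was high for the mean of the mast cell list at 3.51 (others 3.32 to 3.36). Control replicate 3 was high for Ccl20 at 6.52 (others 4.12 to 4.42) and Slc4a1 at 3.67 (others 3.39 to 3.45). Treated ligated replicate 3 was high for Hao2 at 7.82 (others 6.52 to 6.80). Untreated ligated replicate 1 was low for Dbr1 at 5.68 (others 5.98 to 6.02).

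For 7 genes the difference between treated ligated and control livers was not the same in the hemorrhage arms as in the sham arms, by limma's test of the difference of differences. Ccng1 differed by 0.40 in the sham arms and -0.65 in the hemorrhage arms (difference -1.06, adjusted p = 0.029). Clec4m differed by -1.47 in the sham arms and -2.79 in the hemorrhage arms (difference -1.32, adjusted p = 0.014). Dnaja4 differed by 0.53 in the sham arms and -1.91 in the hemorrhage arms (difference -2.44, adjusted p = 0.0013). Dock9 differed by 0.44 in the sham arms and 1.27 in the hemorrhage arms (difference 0.83, adjusted p = 0.032). Hspb1 differed by 1.61 in the sham arms and -1.55 in the hemorrhage arms (difference -3.16, adjusted p = 0.029). Otub2 differed by -2.56 in the sham arms and -1.08 in the hemorrhage arms (difference 1.48, adjusted p = 0.041). Phgdh differed by -0.32 in the sham arms and 2.04 in the hemorrhage arms (difference 2.36, adjusted p = 0.0041).

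Among 11979 probe sets with no symbol or with several, which the gene comparisons leave out, 4641 differed between treated ligated and control livers, 1975 higher and 2666 lower, 36 differed between the ligated groups, and 9 lay past the normal level by the definition used for genes.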

How the results depend on the processing

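Of 186 genes named by rule 167 passed against controls. Of these, 148 passed with the same sign in every one of the 24 alternatives in which they were tested. Genes under the 30th percentile, such as Nfe2, were not tested in the alternative that left them out. None of the 186 changed sign past the threshold. Counts moved most for the comparison of the ligated groups, from 105 genes to 22 in a fit of those groups alone, 397 with array weights and 11 with the title ending as a block. Genes past the normal level went from 32 to 79 with array weights, 9 with that block and 9 under the stricter definition. They numbered 21 in a joint fit of the control, untreated ligated and treated ligated sham arrays, which is not the fit that gave 22. With the block, untreated ligated against control gave 1129 genes. Requiring 2-fold left 2551 genes different between treated ligated and control livers. Leaving out 1 array gave 6784 to 7417 genes for treated ligated against control, 66 to 168 for the ligated groups, 5722 to 6719 for untreated ligated against control and 24 to 41 past normal. The cause of these moves was not tested. No paired analysis was possible because the labels carry no replicate numbers shared between groups. Signals near the nonspecific probe limit what can be said of dim genes: 1249 of the genes lower and 41 of those higher were not above background in either group.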
